A study of Mus musculus with 9 samples.

Results

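The interferon-stimulated genes are described here as 42 named mouse genes, taken from the 54232 genes of a whole-transcriptome count table by their symbols. The list covers transcription factors of the interferon response, sensors of foreign RNA and DNA, and the antiviral proteins that the response switches on, and all 42 symbols matched 1 gene each. The list was chosen by gene function with the differences in counts between states and between passages in these same libraries already known, so every difference of its members is given below as a description, without a p-value, beside the share of all genes that behaved the same way.

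The study compared naïve mouse embryonic stem cells (mESCs) with primed epiblast stem cells (mEpiSCs) converted from them, at an early passage (P5) and a late one (P15). RNA-seq was done on 2 libraries of each state at each passage, replicates 1 and 2, and on 1 library of mouse embryonic fibroblasts (MEFs). All cells were of strain C57 x CBA, and the stem cell line of that cross described in the study's methods carries GFP under the distal *Oct4* promoter in both states. Naïve cells grew in S/L medium (serum with leukaemia inhibitory factor) and primed cells in F/A medium (Fgf2 with Activin A), both on mitomycin C-treated MEF feeders. Medium and state therefore cannot be told apart, and neither can passage and time in culture.

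Interferons are secreted proteins that warn cells of infection. Type I interferons bind the receptor pair Ifnar1 and Ifnar2 and, through the kinases Jak1 and Tyk2, activate a complex containing Stat2 and Irf9 that binds a DNA element of repeated GAAA blocks, the interferon-stimulated response element, in front of its target genes. Pluripotent stem cells are known for a weak interferon response compared with differentiated cells.

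Letters of the response element were found in part of the members' promoters. RefSeq promoter windows (assembly GRCm38.p6), from 250 bases before to 50 bases after the transcription start, were available for 32 of the 42 genes. Of their 36 windows, 31 had bases after the start that lay in an annotated transcript of the same gene. A pair of GAAA blocks with any 2 bases between them, the core of the element, was searched on both strands with overlapping matches kept, and it occurred in the windows of 15 of these 32 genes (46.9%), against 3.99% of the 27025 genes with a window. The nearest match began before the start site in 10 of the 15. The letters TTCNNNGAA, the core of the sites bound by Stat dimers, were in 7 of the 32 (21.9%), against 9.55% of all genes. Stretches from 6 of the promoters are shown because they belong to the ubiquitin-like protein, the Ifit family, a restriction factor and a member of the activating complex described below. Capitals mark the paired GAAA blocks, which read as paired TTTC blocks where the element lies on the other strand.
*Isg15*, chr4:156200845-156200914, minus strand: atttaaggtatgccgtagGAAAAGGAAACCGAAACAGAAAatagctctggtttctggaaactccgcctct
*Ifit1*, chr19:34640774-34640843, plus strand: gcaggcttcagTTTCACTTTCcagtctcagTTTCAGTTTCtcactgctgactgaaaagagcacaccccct
*Ifit3*, chr19:34583373-34583446, plus strand: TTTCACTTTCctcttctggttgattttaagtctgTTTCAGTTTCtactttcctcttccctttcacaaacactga
*Ifit3b*, chr19:34607769-34607842, plus strand: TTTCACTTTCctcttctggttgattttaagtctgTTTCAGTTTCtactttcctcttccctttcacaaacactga
*Bst2*, chr8:71537557-71537626, minus strand: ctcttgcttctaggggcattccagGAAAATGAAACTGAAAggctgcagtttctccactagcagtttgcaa
*Stat2*, chr10:128270248-128270315, plus strand: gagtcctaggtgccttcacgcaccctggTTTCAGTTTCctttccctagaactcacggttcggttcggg

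The capitals in *Isg15* are overlapping copies of the element in a row, and those in *Ifit1*, *Ifit3* and *Ifit3b* are 2 separate copies. The stretches of *Ifit3* and *Ifit3b*, neighbouring genes on chromosome 19, were identical over their 74 bases. A match is a feature of the sequence only, since binding was not measured in these data.

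The states were checked against their markers first. All 8 naïve markers were lower and all 8 primed markers higher in primed cells at both passages, called as below. Total counts per library ran from 14378051 to 20985136 in the stem cells and reached 25646547 in the MEFs, so that 3 counts corresponded to 0.148 to 0.221 counts per 1000000 (CPM) in stem cell libraries. CPM values were scaled across all 9 libraries by trimmed mean of M values, and they are not divided by gene length unless this is stated. Interferon-stimulated transcripts took 0.128% of all counts in both naïve P5 libraries, 0.274% and 0.275% in primed P5, 0.0697% in both naïve P15 libraries, 0.438% and 0.440% in primed P15, and 0.082% in the MEFs.

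The summed level of the 42 genes was 1330 ± 1.86 CPM (mean ± SD, n = 2) in naïve P5 cells and 2421 ± 4.91 CPM in primed P5 cells. It was 736.1 ± 3.57 CPM in naïve P15 cells and 4338 ± 3.23 CPM in primed P15 cells. *Ifitm3* and *Bst2*, the most abundant members in primed P15 cells, carried a large part of the sums. Without them the mean sums were 846.9, 1677, 430 and 2800 CPM in the same order. Naïve and primed cells thus moved apart between P5 and P15, the naïve sum downward and the primed sum upward. Most single genes followed the order of the sums. In 37 of the 42 genes the 4 groups ranked naïve P15, naïve P5, primed P5, primed P15 from low to high with no overlap between libraries, an order found in 2.88% of the 16926 genes tested. The exceptions were *Ddx60*, *Oas3*, *Trim25*, *Mx1* and *Nmi*.

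**Figure D1:**
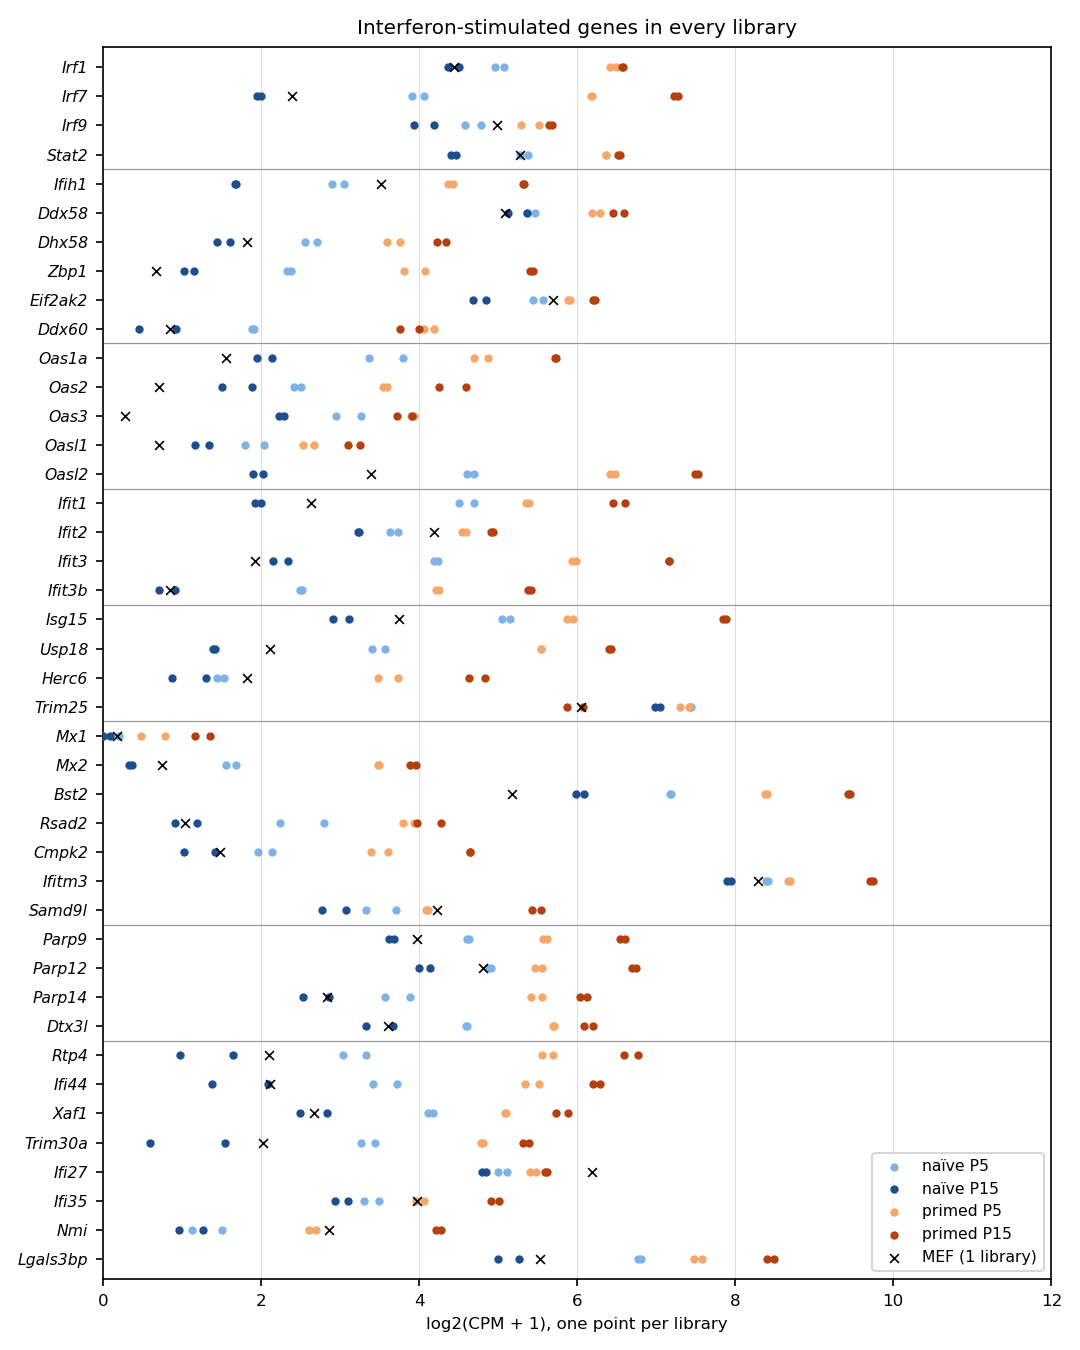
Level of each of the 42 interferon-stimulated genes in each library, as log2(CPM + 1) on the horizontal axis, 1 point per library and a cross for the single MEF library; grey lines separate the groups of genes by role. In 37 genes the points run from dark blue (naïve P15) over light blue (naïve P5) and light orange (primed P5) to dark orange (primed P15) without overlap.

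The transcription factors that carry the interferon signal differed in how far they moved. *Irf7*, the factor that amplifies type I interferon production, lies at chr7:141262706-141266481 on the minus strand (GRCm38, GENCODE M21), and it measured 15.7 and 14.1 CPM in naïve P5 cells, 72.1 and 71.3 CPM in primed P5 cells, 2.87 and 3.01 CPM in naïve P15 cells, 154 and 149 CPM in primed P15 cells and 4.25 CPM in the MEFs. Its groups did not overlap, and its difference grew from 2.30 ± 0.07 (log2 fold change, primed over naïve, ± SE of the edgeR fit, 2 against 2 libraries) at P5 to 5.67 ± 0.11 at P15, a 51.0-fold difference. *Irf1*, a factor induced by type II interferon among others, was at 32.8 and 30.2 CPM in naïve P5, 89.2 and 84.8 CPM in primed P5, 21.8 and 19.6 CPM in naïve P15, 94.8 and 93.9 CPM in primed P15 cells and 20.7 CPM in the MEFs. Its primed levels were similar at the 2 passages, and its log2 difference was 1.5 ± 0.06 at P5 and 2.18 ± 0.08 at P15.

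*Stat2* and *Irf9* encode components of the activating complex. *Stat2* measured 40.7 and 37.7 CPM in naïve P5, 81.2 and 81.3 CPM in primed P5, 20.2 and 21.1 CPM in naïve P15, 90.9 and 92.3 CPM in primed P15 cells and 37.7 CPM in the MEFs. *Irf9* was at 26.7 and 22.9 CPM in naïve P5, 38.0 and 44.7 CPM in primed P5, 17.3 and 14.3 CPM in naïve P15, 50.5 and 49.1 CPM in primed P15 cells and 30.7 CPM in the MEFs. Both were higher in every primed library than in any naïve one, with log2 differences of 1.08 ± 0.06 and 0.77 ± 0.08 at P5 and of 2.14 ± 0.08 and 1.65 ± 0.10 at P15. These 2 genes, with *Irf1*, spanned a narrower range than *Irf7*.

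At P5, 26 of the 41 members tested were called higher in primed cells and 0 lower, where a call means an adjusted p under 0.01 and at least 2-fold. Of all 16482 genes tested at P5, 22.3% were called, 13.5% higher and 8.85% lower. No member was lower by edgeR at an unadjusted p under 0.05 or was called lower by DESeq2 (0 by each). The members' median log2 fold change was 1.24, against 0.0078 for all genes, and 41 of the 42 genes were higher in both primed libraries than in both naïve ones, an arrangement seen in 41% of genes tested. *Mx1*, at 0 to 13 counts per P5 library, did not reach 10 counts in 2 libraries and was not tested. The values nearest to the 2-fold limit were those of *Xaf1*, inside it at 1.02 ± 0.08, and *Ifit2*, outside it at 0.97 ± 0.10.

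At P15, 40 of the 42 members were called higher and 1, *Trim25*, was called lower, with 23.2% of the 15733 genes tested called, 12.2% higher and 11% lower. The median log2 fold change of the members was 3.49, or 3.41 without *Mx1*, whose naïve level rests on few reads, and that of all genes was −0.0039. The differences of the 40 genes called higher spanned from 1.29 ± 0.08 for *Ddx58* to 6.06 ± 0.15 for *Rtp4*. *Ifi27*, at 0.79 ± 0.09, was the 1 member not called. Both primed libraries were above both naïve ones for 41 of the 42 genes, all but *Trim25*, an arrangement seen in 41.7% of genes tested. *Mx1*, a GTPase that blocks virus replication and is defective in many laboratory strains, had 49 counts in the primed P15 and 1 count in the naïve P15 libraries, a ratio of 40.9 with a 95% counting interval (Clopper-Pearson) of 7.01 to 1650.

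**Figure D2:**
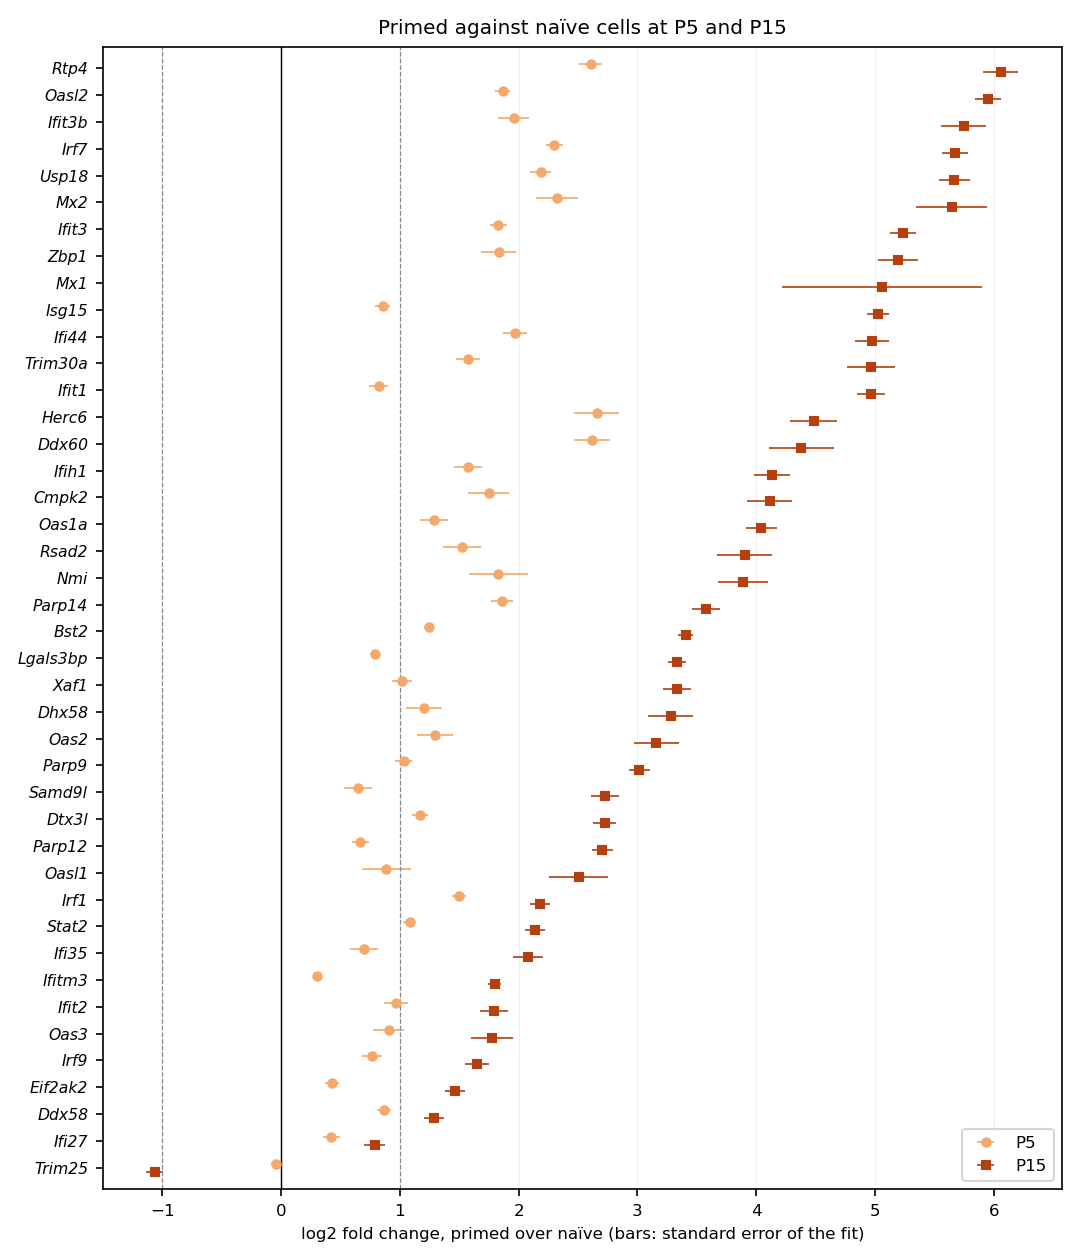
Log2 fold change of primed over naïve cells (horizontal axis, bars ± SE of the fit) at P5 (circles) and P15 (squares) for each gene, ordered by the P15 value; dashed lines mark 2-fold. At P15, 40 of the 42 genes lie right of the upper line, from *Ddx58* at 1.29 to *Rtp4* at 6.06, and *Trim25* lies left of the lower line; *Mx1* has no P5 value.

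The largest differences belonged to effectors and regulators of the response. *Rtp4* (chr16:23520291-23614222, plus strand, GRCm38), a chaperone of receptors that is induced by interferon, measured 7.21 and 9.01 CPM in naïve P5, 45.9 and 51.0 CPM in primed P5, 2.14 and 0.959 CPM in naïve P15, 95.1 and 108 CPM in primed P15 cells and 3.28 CPM in the MEFs. Its primed libraries were far above its naïve ones at both passages (2.61 ± 0.10 and 6.06 ± 0.15). *Oasl2*, of the oligoadenylate synthetase family that senses double-stranded RNA, was at 25.0 and 23.4 CPM in naïve P5, 88.2 and 84.1 CPM in primed P5, 2.73 and 3.07 CPM in naïve P15, 184 and 179.5 CPM in primed P15 cells and 9.48 CPM in the MEFs. The log2 difference of *Oasl2* was 1.86 ± 0.06 at P5 and 5.95 ± 0.11 at P15.

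*Ifit3b*, of the Ifit family that binds foreign RNA, measured 4.72 and 4.65 CPM in naïve P5, 18.1 and 17.5 CPM in primed P5, 0.884 and 0.640 CPM in naïve P15, 40.7 and 41.7 CPM in primed P15 cells and 0.808 CPM in the MEFs. Its log2 differences were 1.96 ± 0.13 and 5.75 ± 0.19, and its counts are uncertain because 45% of its 50-base stretches also occur in other genes, chiefly *Ifit3*. *Usp18*, the protease that removes Isg15 from proteins and damps the receptor, was at 9.60 and 10.8 CPM in naïve P5, 45.5 and 45.4 CPM in primed P5, 1.62 and 1.66 CPM in naïve P15, 83.8 and 85.0 CPM in primed P15 cells and 3.32 CPM in the MEFs. It differed by 2.19 ± 0.09 at P5 and by 5.67 ± 0.13 at P15.

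*Mx2*, related to *Mx1* and annotated as a polymorphic pseudogene in the reference genome, was low throughout the naïve cells, at 1.94 and 2.23 CPM at P5 and at 0.295 and 0.256 CPM at P15, near the value of 3 counts. In primed cells it measured 10.2 and 10.3 CPM at P5 and 13.8 and 14.6 CPM at P15, and in the MEFs 0.681 CPM. Its log2 differences were 2.32 ± 0.18 and 5.64 ± 0.30.

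*Herc6* and *Ddx60* had the largest differences of all members at P5. *Herc6*, the mouse ligase that joins Isg15 to other proteins, was at 1.89 and 1.73 CPM in naïve P5, 10.2 and 12.3 CPM in primed P5, 1.47 and 0.831 CPM in naïve P15, 23.7 and 27.6 CPM in primed P15 cells and 2.55 CPM in the MEFs. *Ddx60*, a helicase that assists RNA sensing, was at 2.69 and 2.77 CPM in naïve P5, 15.7 and 17.2 CPM in primed P5, 0.368 and 0.895 CPM in naïve P15, 12.5 and 15.1 CPM in primed P15 cells and 0.808 CPM in the MEFs. *Herc6* differed by 2.66 ± 0.19 at P5 and 4.48 ± 0.20 at P15, and *Ddx60* by 2.62 ± 0.15 and 4.38 ± 0.27. The primed libraries of *Ddx60* at P15 were below those at P5, unlike those of *Herc6*.

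*Isg15* had a smaller difference than these genes at P5. It encodes the ubiquitin-like protein that is attached to other proteins during the response and lies at chr4:156199424-156200818 on the minus strand (GRCm38), just downstream of the promoter stretch shown above. It measured 32.2 and 34.5 CPM in naïve P5, 57.3 and 60.9 CPM in primed P5, 7.66 and 6.52 CPM in naïve P15, 228 and 236 CPM in primed P15 cells and 12.4 CPM in the MEFs. Its P5 difference, 0.86 ± 0.06, was under 2-fold, although with scaling by library size alone it was 1.06 and called, as were 32 members in place of 26 (17.4% of all genes called higher in place of 13.5%). Its P15 difference was 5.03 ± 0.09, or 32.6-fold. Per kilobase of exon, *Isg15* was at 307 CPM in primed P15 cells, below *Ifitm3* (1250) and *Bst2* (767), both membrane proteins that block virus entry or release, and above the other 39 members.

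By role, the P15 medians of log2 fold change were 2.16 for the 4 signalling transcription factors and 3.71 for the 6 RNA and DNA sensors. They were 3.16 for the 5 genes of the oligoadenylate synthetase family, 5.10 for the 4 Ifit genes and 3.90 for the 7 restriction factors. The Parp and Dtx3l group, 4 genes around ADP-ribosylation of proteins, had a median of 2.87 and lay closely together, from 2.70 to 3.58. All members of these 6 groups were called higher at P15. In the remaining groups, *Isg15* and 3 genes of its conjugation had a median of 4.75, with 3 called higher and *Trim25* lower, and 8 other interferon-stimulated genes had a median of 3.61, with 7 called higher and *Ifi27* not called. Among the 15 genes with paired GAAA blocks in the promoter window the median was 4.04, among the 17 with a window and no match 2.73, and among the 10 without a window 4.32, and the ranges overlapped (1.29 to 5.75 and −1.06 to 5.95 for the first 2). *Oasl2* and *Irf7*, for example, had no match in their windows. Only these exact letters within the windows were searched, so a looser or more distant copy of the element would be missed.

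The change with passage was measured within each state. In naïve cells, 0 of 41 members tested were called higher and 24 lower at P15, against 1.13% of 15683 genes called in all (0.414% higher and 0.721% lower), with a median log2 fold change of −1.15. All 41 values were negative, and 0 were higher at an unadjusted p under 0.05 by edgeR or as called by DESeq2. In primed cells 15 of 42 members were called higher and 1 lower, against 11.6% of 15957 genes (3.18% higher and 8.43% lower), with a median of 0.89. The P5 libraries are the same as in the comparisons of the states, so these counts are not separate evidence.

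The members fell into several patterns, each given with its share of the 14833 genes tested in both states. Lower in naïve and higher in primed cells at P15 were 9 genes (0.128% of all), namely *Irf7*, *Zbp1*, *Oasl2*, *Ifit1*, *Ifit3*, *Ifit3b*, *Isg15*, *Bst2* and *Rtp4*. Called lower in naïve cells and not called in primed ones were 15 (0.479%), among them *Usp18*, *Mx2*, *Ddx60* and *Trim30a*, and *Ddx60* itself had a log2 change of −0.28 ± 0.12 in primed cells. Called higher in primed cells and not called in naïve ones were 6 (2.43%), *Herc6*, *Cmpk2*, *Ifitm3*, *Samd9l*, *Parp12* and *Nmi*. Called in neither were 10 (89.1%), including *Irf1*, *Irf9* and *Stat2*. *Trim25* was called lower in primed cells alone, while *Mx1* was tested in primed cells only, without a call.

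Values of the named genes show the spread. With passage *Isg15* changed by −2.24 ± 0.11 in naïve and by 1.94 ± 0.06 in primed cells, the largest primed value of all members. *Oasl2* changed by −3.05 ± 0.14 and 1.05 ± 0.06, and *Ifit1* by −3.00 ± 0.15 and 1.15 ± 0.07, the 2 lowest naïve values. Several of these calls lie close to the 2-fold limit, where *Ifitm3* (1.01 ± 0.05) was inside and *Parp9* (0.97 ± 0.06) outside in primed cells. Without primed P5 replicate 1 or primed P15 replicate 2 the primed change of *Rtp4* (1.04 ± 0.07) fell under the limit, at 0.94 and 0.95, and without primed P5 replicate 2 that of *Oasl2* did so at 0.99. With scaling by library size alone, 10 members in place of 15 were called higher in primed cells (2.41% of all genes), and the primed changes of *Irf7* (0.92), *Rtp4* (0.91) and *Oasl2* (0.91) were under the limit. The naïve change of *Ddx60*, −2.06 ± 0.39, was −1.60 and no longer called without naïve P15 replicate 1.

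**Figure D3:**
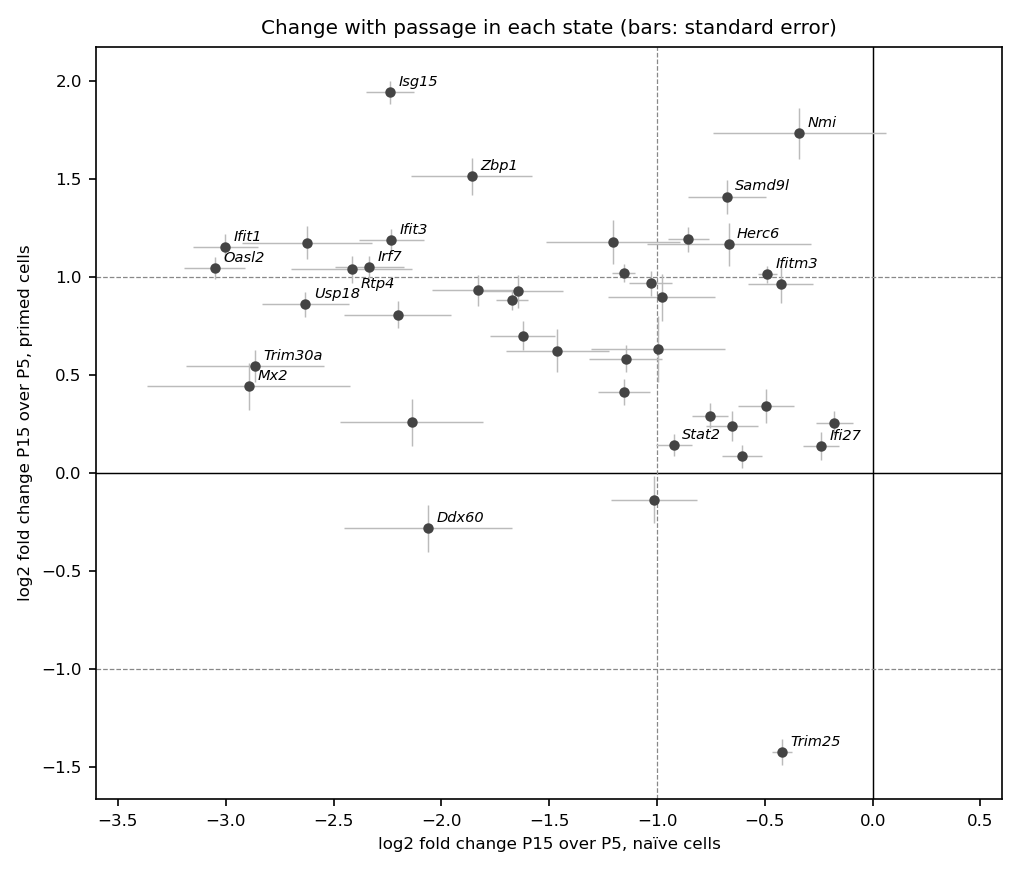
Log2 fold change of P15 over P5 in naïve cells (horizontal axis) against the same in primed cells (vertical axis) for the 41 genes tested in both, with SE bars; dashed lines mark 2-fold and some genes are named. All points lie left of 0; *Isg15* is highest, at −2.24 and 1.94, and *Trim25* alone lies under the lower line, at −0.42 and −1.43.

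A single fit of the 8 stem cell libraries compared the difference between the states at the 2 passages. The signed log2 difference, primed over naïve, was higher at P15, by at least 2-fold and at an adjusted p under 0.01, for 34 of 42 members and lower for 0, against 7.16% of the 16926 genes tested, 2.36% higher and 4.8% lower. *Trim25*, which went from −0.04 at P5 to −1.06 at P15, alone was lower by edgeR at an unadjusted p under 0.05 and was called so by DESeq2 (1 gene by each). The members' median was 2.09 on the log2 scale, and *Isg15* (4.19 ± 0.11), *Ifit1* (4.16 ± 0.16) and *Oasl2* (4.10 ± 0.14) had the largest values. Those not called were *Irf1*, *Irf9*, *Ddx58*, *Ifit2*, *Oas3*, *Ifi27*, *Mx1* and *Trim25*. *Trim25* stood just outside the limit at −0.9994 ± 0.083, *Eif2ak2* just inside at 1.05 ± 0.10, and *Irf9* (0.90 ± 0.14) passed it without naïve P5 replicate 2 (1.02) or naïve P15 replicate 1 (1.03).

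*Trim25* and *Ifi27* departed from the rest, and they were picked for their values. *Trim25* (chr11:88999376-89020293, plus strand, GRCm38), a ubiquitin ligase that activates the RNA sensor Ddx58, measured 173 and 171 CPM in naïve P5, 170.0 and 156 CPM in primed P5, 131 and 126 CPM in naïve P15, 66.4 and 57.8 CPM in primed P15 cells and 65.5 CPM in the MEFs. It fell by 1.43 on the log2 scale with passage in primed cells, where its P15 libraries were close to the MEF level. *Ifi27*, a small interferon-induced membrane protein, was at 31.1 and 33.6 CPM in naïve P5, 43.6 and 41.2 CPM in primed P5, 26.8 and 27.9 CPM in naïve P15, 48.2 and 47.1 CPM in primed P15 cells and 71.7 CPM in the MEFs. It kept the order of the other members, over a range under 2-fold.

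The MEF library allowed the members' levels to be set beside those of the feeder cell type, with 1 library and therefore no test. Both libraries of a group were above the MEF level for 32 members in naïve P5 cells, 38 in primed P5 cells, 9 in naïve P15 cells and 40 in primed P15 cells, where the share of all genes was 50.3%, 51.1%, 48.5% and 49.4%. The median ratio of the members to the MEFs was 2.45, 5.28, 0.736 and 10.9 in the same order. The 2 members not above the MEF level in primed P15 cells were *Trim25* and *Ifi27*, and the 9 above it in naïve P15 cells included *Bst2*, *Oas3*, *Zbp1* and *Trim25*.

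Transcripts of fibroblasts were present in the stem cell libraries. The 30 fibroblast markers, none of them at 0, summed to 15600 and 15700 CPM in naïve P5, 10880 and 10600 CPM in primed P5, 24870 and 25970 CPM in naïve P15, 20260 and 19420 CPM in primed P15 libraries and 101300 CPM in the MEFs, and their median level was 12.6% to 23.9% of that in MEFs. The naïve sums were above the primed ones at both passages, and the sums of both states were higher at P15 than at P5. Single markers went both ways, with 3 of the 30 called higher and 9 lower in primed cells at P5, and 5 and 5 at P15 (median −0.10). Called in either direction were 40% of the markers at P5 and 33.3% at P15, against 22.3% and 23.2% of all genes tested. *Dcn* (3.56 and 5.23) and *Lum* (2.91 and 5.01), proteoglycans of the matrix, and *Mmp2* (1.45 and 1.66) were called higher in primed cells at both passages. *Pdgfra* (2.08) and *Twist2* (1.33) were called higher at P15 only. Called lower in primed cells at both passages were *Acta2* (−1.80 and −3.50), *Fap* (−1.71 and −1.49) and *Col5a2* (−1.27 and −1.04). The other markers called lower were so at a single passage. The markers' median level relative to MEFs was 20.6% and 21.9% in naïve P15 and 23.9% and 22.7% in primed P15 libraries. Their part in the members' values was not tested beyond the correction below. In such bulk samples, fewer cells of a type and less RNA per cell cannot be told apart. With the fibroblast share taken off the counts of each library, 27 members were called higher at P5 (17.7% of all genes) and 41 at P15 (16.2%), and the members' P15 median was 3.93. The members' median level was 66.4% and 69.2% of the MEF level in naïve P15 and 1130% and 1100% in primed P15 libraries. The correction thus takes a larger part of the naïve level, and a larger P15 difference follows from how it is computed. It also lets the 1 MEF library stand for the feeders, which was not tested. The 12 leukocyte markers summed to 20.7 to 67.8 CPM in stem cell libraries and 107.9 CPM in the MEFs. The sum was lowest in primed P15 cells through *Laptm5*, at 43.5 and 43.9 CPM in naïve P15 and 2.81 and 2.44 CPM in primed P15 libraries. Of 6 leukocyte markers tested at P5, 2 were called higher and 3 lower in primed cells, and of 5 tested at P15, 1 and 3. In either direction 83.3% of those tested were called at P5 and 80% at P15, against 22.3% and 23.2% of all genes tested. Called lower at both passages were *Laptm5*, *Coro1a* (−1.25 and −1.83) and *Cd3e* (−3.82 and −7.23), the last at 0 to 23 counts per stem cell library. *Lyz2*, of myeloid cells, was called higher at P5 (1.72) and P15 (1.34), and *Cd68* at P5 (1.18). *Adgre1*, of macrophages, was not tested and had 0 and 2 counts in naïve P15 and 7 and 16 in primed P15 libraries. *Ptprc*, which marks all leukocytes, had 0 to 9 counts per stem cell library, the most in primed P15 replicate 1. The part of these cells in the members' values was not tested.

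**Figure D4:**
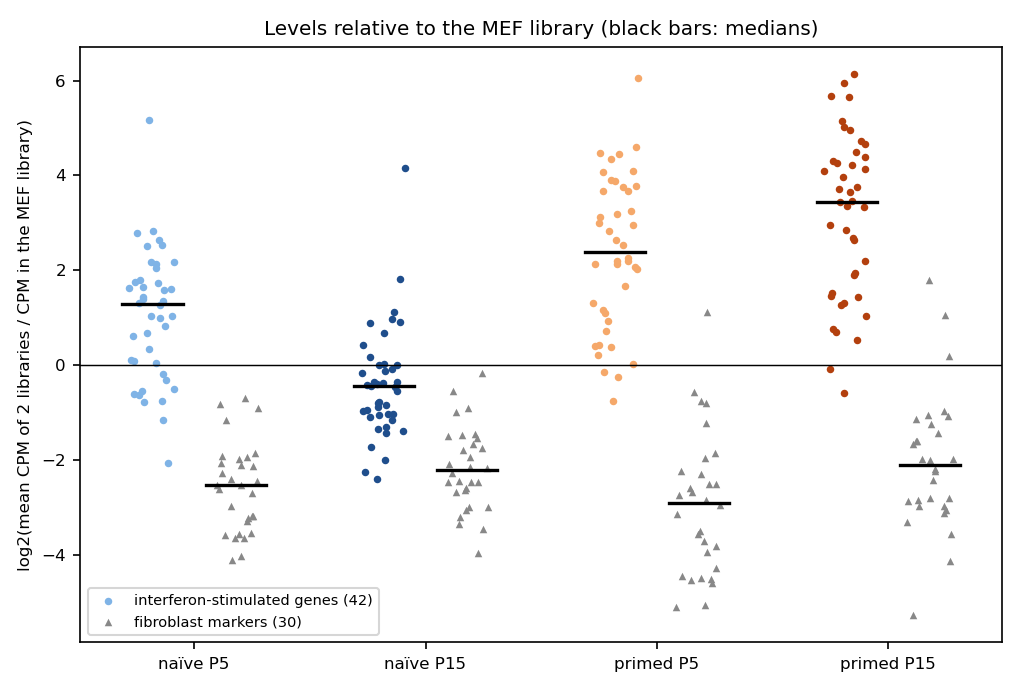
Level of the 42 interferon-stimulated genes (coloured circles) and of 30 fibroblast markers (grey triangles) in each group relative to the MEF library, as log2 of the mean CPM of 2 libraries over the MEF CPM; black bars are medians. The circles' medians correspond to ratios of 2.45 (naïve P5), 0.736 (naïve P15), 5.28 (primed P5) and 10.9 (primed P15), while the triangles' medians stay below 0 in all 4 groups.

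The rest of the pathway was read from lists of 98 other genes, of which 71 were tested in the comparisons of the states. At P5 28 were called higher and 3 lower, and at P15 36 and 2. Of all genes tested, 13.5% were called higher and 8.85% lower at P5, and 12.2% and 11% at P15. Called in either direction were 43.7% of the pathway genes at P5 and 53.5% at P15, against 22.3% and 23.2% of all genes. The lists, like the members, were chosen with earlier results of these data known. Their shares are therefore a description and not separate evidence. The list of Jak family kinases and Irf factors (14.3%) and the negative regulators (20%) were below the share of all genes at P15. Most of those named below were picked for their calls, so their p-values, adjusted over all genes tested, describe them and are no independent test of the lists. The interferon genes themselves were nearly silent, since the 21 listed had 0 to 10 counts in all per library, the highest number in primed P15 replicate 2, where 8 of the 10 were from *Ifnb1*. None of the 21 reached the count minimum, and a difference in ligand transcripts was not detectable at this depth.

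Of the 6 receptor genes, 2 were called higher at each passage, and their median log2 difference was 0.79 at P5 and 0.86 at P15. *Ifnar1* measured 51.6 and 45.7 CPM in naïve P5, 71.8 and 71.8 CPM in primed P5, 46.0 and 52.6 CPM in naïve P15 and 71.6 and 67.7 CPM in primed P15 cells, a difference under 2-fold (0.59 ± 0.06, edgeR adjusted p = 3.54e-10, and 0.48 ± 0.08, edgeR adjusted p = 1.24e-06). *Ifngr2*, of the type II receptor, was at 22.6 and 22.1 CPM in naïve P5, 53.1 and 51.3 CPM in primed P5, 25.0 and 24.7 CPM in naïve P15 and 56.3 and 58.3 CPM in primed P15 cells. It was higher at both passages, by 1.26 ± 0.07 (edgeR adjusted p = 8.10e-16) and 1.20 ± 0.09 (edgeR adjusted p = 9.45e-15). *Ifnlr1*, of the type III receptor, was at 0.895 and 1.73 CPM in naïve P5 and at 6.81 and 5.33 CPM in primed P5 cells, higher by 2.24 ± 0.26 (edgeR adjusted p = 8.41e-09). At P15 it was at 1.62 and 0.768 CPM in naïve and 1.03 and 1.48 CPM in primed cells, without a call (0.09 ± 0.44, edgeR adjusted p = 0.874).

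Of the 7 genes of Jak family kinases and Irf factors, 2 were called higher and 1 lower at P5, and 1 was called higher at P15. *Irf2*, which represses some interferon targets, measured 5.77 and 6.14 CPM in naïve P5, 18.6 and 22.3 CPM in primed P5, 5.67 and 6.97 CPM in naïve P15 and 15.3 and 14.9 CPM in primed P15 cells. It was higher in primed cells at both passages, by 1.81 ± 0.13 (edgeR adjusted p = 1.73e-13) and 1.23 ± 0.16 (edgeR adjusted p = 1.19e-08). The kinases *Jak1* and *Tyk2* were not called.

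Of the 13 sensing and adaptor genes tested, 4 were called higher and 1 lower at each passage. *Ikbke*, a kinase that activates Irf3 and Irf7, measured 5.22 and 6.58 CPM in naïve P5, 32.4 and 33.8 CPM in primed P5, 5.52 and 5.31 CPM in naïve P15 and 33.6 and 34.5 CPM in primed P15 cells. It was higher by 2.52 ± 0.11 at P5 (edgeR adjusted p = 3.16e-18) and 2.64 ± 0.13 at P15 (edgeR adjusted p = 1.29e-19). *Ifi204*, a sensor of DNA, was at 13.3 and 11.5 CPM in naïve P5, 27.7 and 30.8 CPM in primed P5, 4.79 and 3.84 CPM in naïve P15 and 36.3 and 40.4 CPM in primed P15 cells. It was higher by 1.27 ± 0.10 (edgeR adjusted p = 1.70e-12) and 3.15 ± 0.14 (edgeR adjusted p = 3.11e-21). *Aim2*, the DNA sensor of an inflammasome, went the other way, at 39.3 and 38.5 CPM in naïve P5, 6.76 and 7.49 CPM in primed P5, 39.6 and 40.9 CPM in naïve P15 and 0.803 and 1.19 CPM in primed P15 cells. Its log2 difference was −2.42 ± 0.10 (edgeR adjusted p = 4.24e-19) and −5.33 ± 0.17 (edgeR adjusted p = 3.30e-25). Of the 10 negative regulators tested, *Socs1* and *Adar* were called higher at P15, and these were the only calls in this list at either passage.

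Further effectors came closest to the members. Of 35 tested, 20 were called higher and 1 lower at P5 (median 1.16), and 27 and 1 at P15 (median 2.94). *Irgm1*, a GTPase acting on intracellular microbes, measured 36.2 and 35.7 CPM in naïve P5, 77.2 and 79.7 CPM in primed P5, 18.5 and 15.3 CPM in naïve P15 and 197 and 217 CPM in primed P15 cells, a difference of 1.16 ± 0.06 (edgeR adjusted p = 4.54e-17) and 3.61 ± 0.09 (edgeR adjusted p = 9.07e-30). *Rnf213*, a large ubiquitin ligase, was at 102 and 99.7 CPM in naïve P5, 177 and 175 CPM in primed P5, 35.9 and 37.4 CPM in naïve P15 and 196 and 182 CPM in primed P15 cells. It differed by 0.83 ± 0.04 (edgeR adjusted p = 5.40e-17), under 2-fold but 1.04 with scaling by library size alone, and by 2.36 ± 0.07 (edgeR adjusted p = 3.67e-26). *Apobec3*, a cytidine deaminase that restricts retroviruses, measured 112 and 108 CPM in naïve P5, 46.4 and 47.3 CPM in primed P5, 89.8 and 92.0 CPM in naïve P15 and 40.9 and 41.5 CPM in primed P15 cells. It was lower in primed cells at both passages, with log2 differences of −1.20 ± 0.05 (edgeR adjusted p = 1.04e-18) and −1.15 ± 0.07 (edgeR adjusted p = 1.85e-16). The 42 members and these effectors had paired GAAA blocks in 46.9% and 61.8% of their genes with a window.

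**Figure D5:**
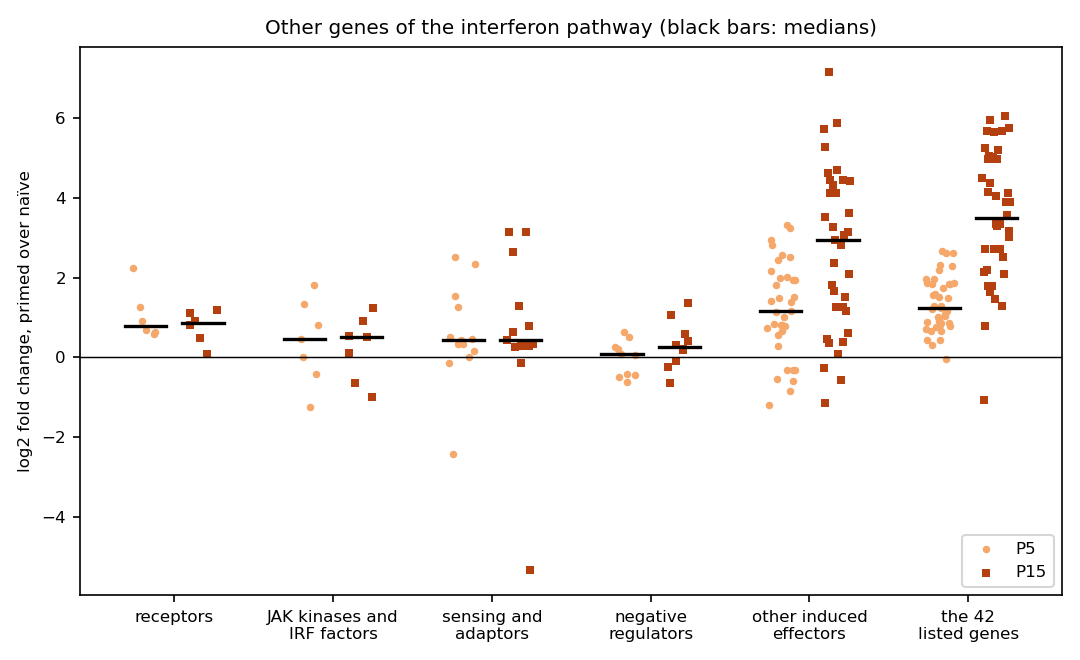
Log2 fold change of primed over naïve cells (vertical axis) at P5 (circles) and P15 (squares) for the tested genes of 5 pathway lists and the 42 interferon-stimulated genes; black bars are medians. The medians of the receptors stay near 0.8 (0.79 and 0.86), while those of the other effectors go from 1.16 to 2.94 and those of the 42 genes from 1.24 to 3.49.

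Some members share sequence with other genes, and their separate counts are uncertain. Of the 50-base stretches of *Oas1a*, 57.6% also occur in *Oas1g*, and *Ifit3* and *Ifit3b* share 51.2% and 45% of theirs with other genes, mostly with each other. *Parp9* and *Dtx3l* lie on opposite strands and their exons overlap by 458 bases, and the library kit does not mark strand. Larger parts of the exon bases of *Ifi35* (16.8%), *Rtp4* (13.9%) and *Herc6* (13.7%) also overlap other annotated genes. Apart from *Oas1a*, *Ifit3* and *Ifit3b*, the members shared at most 12.5% of their 50-base stretches.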

How the data were processed

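Poly(A) RNA of 8 stem cell samples and 1 MEF sample was sequenced from unstranded NEBNext Ultra libraries. The authors trimmed reads with cutadapt, mapped them with HISAT2 (mm10), which was set to report several alignments per read, and used featureCounts on Ensembl genes; the annotation release and how featureCounts treated multi-mapped reads are not given in the sources used here. The deposited values are raw counts. GENCODE M21 named 54079 of the 54232 genes. The 92 spike-in rows, all at 0, were left out.

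Counts were tested with edgeR 4.0.16 (R 4.3.3; quasi-likelihood test, TMM scaling, two-sided, Benjamini-Hochberg adjustment over all genes tested) on the 4 libraries of each comparison, or on 8 for the difference between passages, with at least 10 counts in 2 or more libraries. Calls needed at least 2-fold with adjusted p below 0.01, the limits of the study's methods. The SE is the log2 fold change over the root of F. On simulated data for P5, 200 of 200 changed genes were recovered among 16328. DESeq2 1.42.0, other scalings, no filter, a replicate block, a fibroblast correction (MEF counts times the markers' median ratio, taken off) and leaving out each library were alternatives.

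The members and lists were chosen with earlier results of these data known. Library values are given for the signalling factors, *Isg15*, the 5 largest called differences per passage with a mean of at least 1 CPM, *Ifnar1* and, per pathway list, at most 3 genes called at both passages or differing between them. Of the pathway lists, 1 gene is not reported here. Replicates differed by more than sampling noise (chi-square per gene 2.1 to 3.28), and the study calls them biological repeats, but no source used here says that they were separate cultures, so p-values measure the spread between these libraries, which may be technical. Same-numbered libraries did not deviate together (correlations −0.12 to 0.0911). Intervals and floors cover counting error only.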

Additional observations from a re-analysis of the deposited data

Results flagged for a closer look

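These results were picked out because the difference between primed and naïve cells itself differed between P15 and P5 in the fit of all 8 stem cell libraries. Of the 42 interferon-stimulated genes, 34 had a higher and 0 a lower signed difference (primed over naïve) at P15, with 2.36% and 4.8% of all genes tested called in these directions. As log2 effect at P15 minus that at P5, the values were 4.19 for *Isg15*, 4.10 for *Oasl2*, 3.81 for *Ifit3b*, 3.50 for *Usp18*, 3.47 for *Rtp4*, 3.39 for *Irf7* and 3.34 for *Mx2*. Smaller values were found for *Herc6* (1.85), *Ddx60* (1.78) and *Stat2* (1.07). The value of *Ddx60* was 1.32 and no longer called without naïve P15 replicate 1, and that of *Stat2* was 0.96, under 2-fold, with scaling by library size alone. The same members entered the list with the results of these libraries known, so the values describe them only.

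Among the other pathway genes, several of them named for this difference, the value was positive for *Irgm1* (2.47, edgeR adjusted p = 3.12e-18), *Ifi204* (1.89, edgeR adjusted p = 6.15e-10) and *Rnf213* (1.54, edgeR adjusted p = 4.32e-16). It was negative for *Aim2* (−2.90, edgeR adjusted p = 1.18e-11), which was lower in primed cells at both passages and further so at P15, and for *Ifnlr1* (−2.13, edgeR adjusted p = 0.0017). *Ifnlr1* had at most 6.81 CPM in any stem cell library, and its adjusted p was between 0.0121 and 0.0762 when naïve P5 replicate 1, naïve P15 replicate 1 or either of primed P5 replicate 1 and primed P15 replicate 1 was left out, and 0.0259 with the fibroblast correction. The fibroblast markers' sums rose from P5 to P15 in both states, and their part in these values was not tested beyond the fibroblast correction. Under that correction 37 members and 2.94% of all genes were called higher. The correction takes a larger part of low levels, such as those of the members in naïve P15 cells, so it cannot decide this part.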

How the results depend on the processing

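None of the differences called for the genes with library values was called in the opposite direction under any alternative. Differences that were not called are left out of this statement. The median of all genes at P15 changed sign with scaling by library size alone, from −0.0039 to 0.1009. Scaling by library size alone moved the median of all genes by 0.20 at P5, 0.10 at P15, −0.13 with passage in primed cells and −0.11 in the difference between passages; at P5 it raised the share of higher among called genes from 60.4% to 72.5%, and at P15 it left 0 members called lower. *Trim25*, the member concerned, was the 1 member whose signed difference, primed over naïve, was called lower at P15 than at P5 under DESeq2 size factors, library size alone, the DESeq2 Wald test and the fibroblast correction (1 called lower in each, against 0). When single libraries were left out, the members called higher were 25 to 28 at P5, 38 to 40 at P15, 12 to 16 with passage in primed cells and 33 to 35 in the difference between passages, and 19 to 23 were called lower with passage in naïve cells. The members called lower were 0 to 1 at P15, with 0 only without primed P15 replicate 2, and 0 to 1 in the difference between passages, with 1 without naïve P5 replicate 1, primed P5 replicate 2, naïve P15 replicate 2 or primed P15 replicate 1; the lone library left in a group is then taken to vary like the others. The replicate block gave 26 members higher at P5, 40 at P15, 25 lower in naïve cells and 16 higher in primed cells, and since same-numbered libraries did not deviate together it has no reading as a pairing. A crossed block at P15, added after seeing the data because that correlation was −0.106, gave 40 higher and 1 lower. With 2 libraries per group no value for a lone group has a test, and members near 3 counts, such as *Mx1* and *Mx2* in naïve P15 cells, are limited by depth.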
